A study of Sorghum bicolor with 8 samples.

Results

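In sorghum prop roots, a small set of genes was listed at a low level in one CO2 group and at 2 FPKM or more in the other. These genes were chosen by their pooled levels: the lower of the 2 group values had to be under 0.5 FPKM and the higher at least 2 FPKM (fragments per kilobase of transcript, a level corrected for gene length and library size). Of the 34129 genes in the table, 63 met both limits, 18 with the higher value in elevated CO2 and 45 with the higher value in ambient CO2. Below, these are called high in elevated CO2 only and high in ambient CO2 only. In these names, high means no more than a value of at least 2 FPKM. Only means a value under 0.5 FPKM in the other group, which need not be absence. RNA was sequenced from prop roots of the cultivar BRS330, in 4 libraries from plants in elevated CO2 (800 µmol per mol) and 4 from plants in ambient CO2 (400 µmol per mol). Plants of both groups carried the same second treatment, a water deficit: 0.45 L of water per day for 30 days, after 1.5 L per day over the first 60 days, so no well-watered plants are part of the comparison. Per the labels the libraries of a group share cultivar, tissue and treatment, and whether they came from separate plants is not given there.

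Prop roots are shoot-borne roots that leave the lower stem nodes above the soil and anchor the plant, and those exposed to light can become green. Plants in elevated CO2 usually narrow their stomata and lose less water, so that leaves can keep fixing carbon for longer when soil water is short. A transcript that is nearly missing from a tissue in one state and present in another is often one whose promoter is active in few cell types, at one stage of development or under one stress. The identifiers in the table are paired with no gene name, product or sequence, and 0 of them matched the RefSeq table of 32945 genes at hand, so the roles of the genes are not given and the tissue could not be checked against marker genes. Whether RNA of another organ or cell type was present in either group was therefore not tested. Genes are therefore described by level, position and locus span, with at most 2 identifiers per direction.

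The table holds 1 FPKM value per gene and group, pooled by the authors over the group's libraries, so group values carry no SD, and read depth is not known. In a bulk tissue, fewer cells of a type and less RNA per cell cannot be told apart. Whether a level came from all 4 libraries of a group or mainly from 1 was not tested, since no single library's value was at hand. The sum of FPKM over the table was 579715 in elevated and 652743 in ambient CO2. In elevated CO2 15819 genes had at least 2 FPKM, of which the 18 with an ambient value under 0.5 FPKM made up 0.114%. In ambient CO2 16144 genes did, of which the 45 with an elevated value under 0.5 FPKM made up 0.279%. Both values were at least 2 FPKM for 15346 genes.

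Among the genes high in elevated CO2 only, the highest level was listed for a gene on chromosome 2 (60423441 to 60424313), with 12.7 FPKM in elevated CO2 and 0.166 FPKM in ambient CO2. Sobic.005G184700 (chromosome 5, 66965526 to 66966456) followed with 12.3 FPKM in elevated CO2 and 0.0435 FPKM in ambient CO2, the widest ratio of any gene here at 283-fold. Close to it on the chromosome, a second gene (66970092 to 66971018) had 9.43 FPKM in elevated CO2 and 0.108 FPKM in ambient CO2. Over the other genes of at least 2 FPKM, without the 63, the median ratio of higher over lower value was 1.18. The limits that chose the 63 give each a wide ratio, at least 4.34 where defined, so nothing is read from this contrast. A further gene of chromosome 5 (67024040 to 67025037) was listed at 8.21 FPKM in elevated CO2 and 0.102 FPKM in ambient CO2. Sobic.009G001600 (chromosome 9, 166826 to 167614) had 7.67 FPKM in elevated CO2 and was listed at 0 in ambient CO2, so no ratio is given. The sixth gene above 5 FPKM, on chromosome 1 (74445944 to 74451079), had 5.87 FPKM in elevated CO2 and 0.464 FPKM in ambient CO2. That last ambient value lies just under the limit of 0.5 FPKM, unlike those of the other 5.

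The remaining 12 genes high in elevated CO2 only had 2.08 to 4.50 FPKM there. Across all 18 the median was 2.996 FPKM in elevated CO2 and 0.105 FPKM in ambient CO2. In ambient CO2, 5 of the 18 were listed at 0, another 3 were under 0.1 FPKM, and 5 had between 0.1 and 0.2 FPKM. None lay between 0.2 and 0.4 FPKM, and the last 5 had at least 0.4 FPKM. The 5 listed at 0 in ambient CO2 had 7.67, 4.50, 3.05, 2.13 and 2.08 FPKM in elevated CO2. The one at 4.50 FPKM spans only 267 bp (chromosome 6, 57421258 to 57421525), and FPKM of so short a locus rests on few positions for a fragment to fall.

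**Figure D1:**
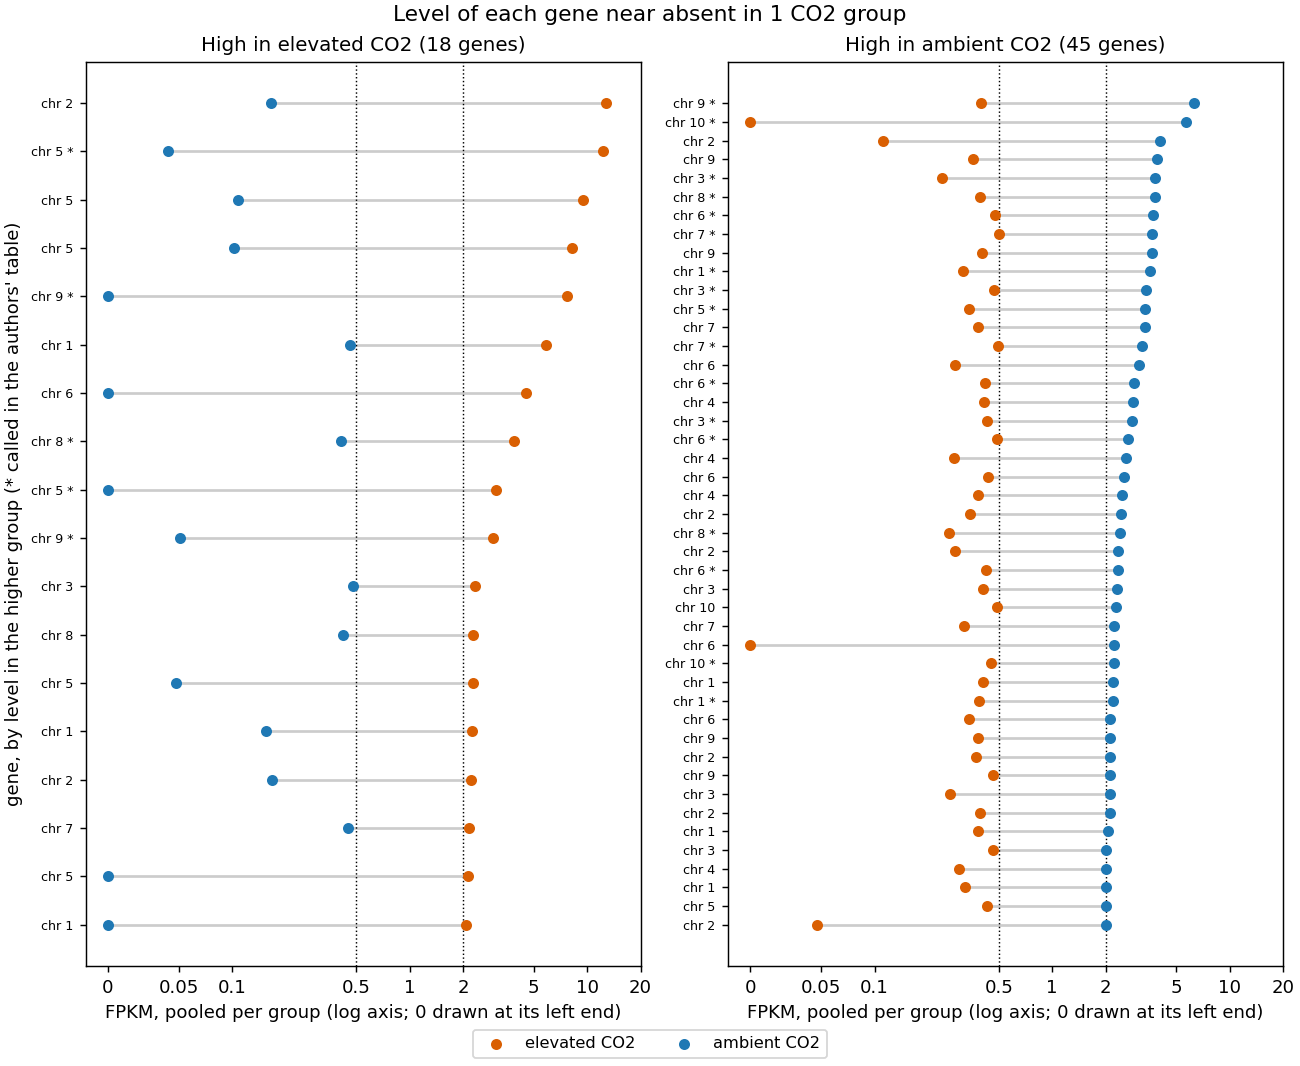
Pooled FPKM of all 63 genes on a log axis, with elevated CO2 in orange, ambient CO2 in blue, values of 0 drawn at the left end and dotted lines at the limits of 0.5 and 2 FPKM; each row is a gene labelled by chromosome, and an asterisk marks a gene called in the authors' deposited table. On the left 13 of 18 genes have ambient values under 0.2 FPKM, while on the right 40 of 45 have elevated values of 0.25 FPKM or more.

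The genes high in ambient CO2 only were more numerous but lay closer to the limits. By level both sets were low. The median higher value was 2.435 FPKM for genes high in ambient CO2 only and 2.996 FPKM for those high in elevated CO2 only. For the other genes of at least 2 FPKM it was 13.9 FPKM, and 7.85% of them were under 3 FPKM. Among the genes high in ambient CO2 only, Sobic.009G014600 (chromosome 9, 1267111 to 1268591) was highest, with 0.396 FPKM in elevated CO2 and 6.27 FPKM in ambient CO2. Sobic.010G259266 (chromosome 10, 59631818 to 59632220) was listed at 0 in elevated CO2 and at 5.66 FPKM in ambient CO2. No other gene of this direction reached 5 FPKM. The next was a gene on chromosome 2 (20500060 to 20501405) with 0.112 FPKM in elevated CO2 and 4.07 FPKM in ambient CO2, a ratio of 36.5. The widest defined ratio of this direction, 42.1, belonged to its lowest gene (chromosome 2, 74037077 to 74041790), with 0.0475 FPKM in elevated CO2 and 2.003 FPKM in ambient CO2. Besides Sobic.010G259266, only a gene of 714 bp on chromosome 6 (45775746 to 45776460) was listed at 0 in elevated CO2, with 2.23 FPKM in ambient CO2.

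Over the 45 genes the median was 0.384 FPKM in elevated CO2 and 2.44 FPKM in ambient CO2, and 30 of them had under 3 FPKM in ambient CO2. In elevated CO2, 40 of the 45 still had 0.25 FPKM or more and 18 had 0.4 FPKM or more, so most of this set kept a listed value in both groups. The median ratio was 6.89-fold over the 43 genes with a defined one, with quartiles of 5.58 and 9.12. For the 13 genes high in elevated CO2 only that have a defined ratio, the median was 14.6-fold, with quartiles of 9.36 and 76.3. A ratio of at least 20, or a value of 0, was found in 11 of the 18 genes high in elevated CO2 only and in 4 of the 45 high in ambient CO2 only. With 0.1 FPKM added to both values, which lets genes at 0 enter, the median log2 ratio of elevated over ambient CO2 was 4.39 for the 18 genes high in elevated CO2 only and -2.51 for the 45 high in ambient CO2 only, beside -0.03 over all tested genes. These ratios follow from the limits that chose the genes and are a description only.

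**Figure D2:**
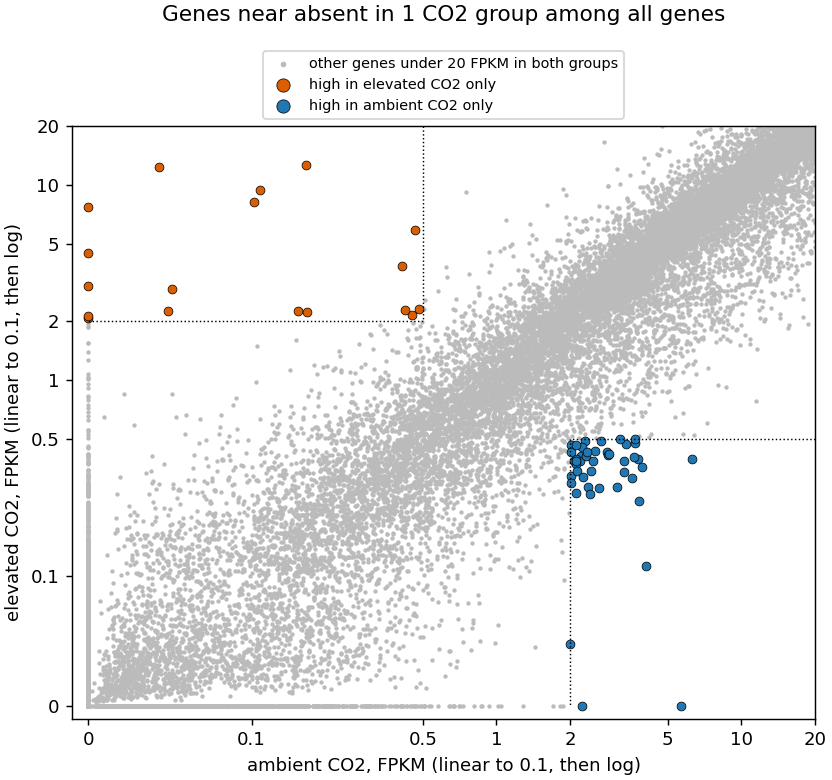
Pooled FPKM in elevated CO2 (vertical) against ambient CO2 (horizontal) for all genes under 20 FPKM in both groups, on axes that are linear up to 0.1 and logarithmic above; dotted lines enclose the 2 regions of the limits. The 45 genes high in ambient CO2 only crowd the corner of their region next to the other genes, while many of the 18 high in elevated CO2 only stand apart from the cloud.

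Values on either side of the limits were close. At the limit of 0.5 FPKM, the genes just inside with high elevated values had 0.482, 0.464 and 0.451 FPKM in ambient CO2, and those just outside had 0.507, 0.512 and 0.578 FPKM. For the other direction the values in elevated CO2 were 0.499, 0.498 and 0.488 FPKM just inside and 0.507, 0.509 and 0.514 FPKM just outside. At the limit of 2 FPKM, genes high in elevated CO2 only had 2.08, 2.13 and 2.17 FPKM in elevated CO2 just inside and 1.99, 1.96 and 1.94 FPKM just outside. Genes high in ambient CO2 only had 2.003, 2.007 and 2.008 FPKM in ambient CO2 just inside and 1.998, 1.99 and 1.98 FPKM just outside. A further 36 genes had at least 2 FPKM in elevated CO2 and 0.5 to 1 FPKM in ambient CO2, and 173 had 0.5 to 1 FPKM in elevated CO2 and at least 2 FPKM in ambient CO2.

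Which direction held more genes depended on how strictly absence was defined. Under 0.5 FPKM there were 18 genes high in elevated CO2 only and 45 high in ambient CO2 only. Under 0.25 FPKM there were 13 high in elevated CO2 only and 5 high in ambient CO2 only, and under 0.1 FPKM there were 8 high in elevated CO2 only and 3 high in ambient CO2 only. The number high in elevated CO2 only was the same, 13, at every limit tried between 0.2 and 0.4 FPKM, whereas the number high in ambient CO2 only went up from 4 to 27 over that range. At 1 FPKM, 54 genes were high in elevated CO2 only and 218 in ambient CO2 only. No test was made of the difference, because these values chose the genes.

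**Figure D3:**
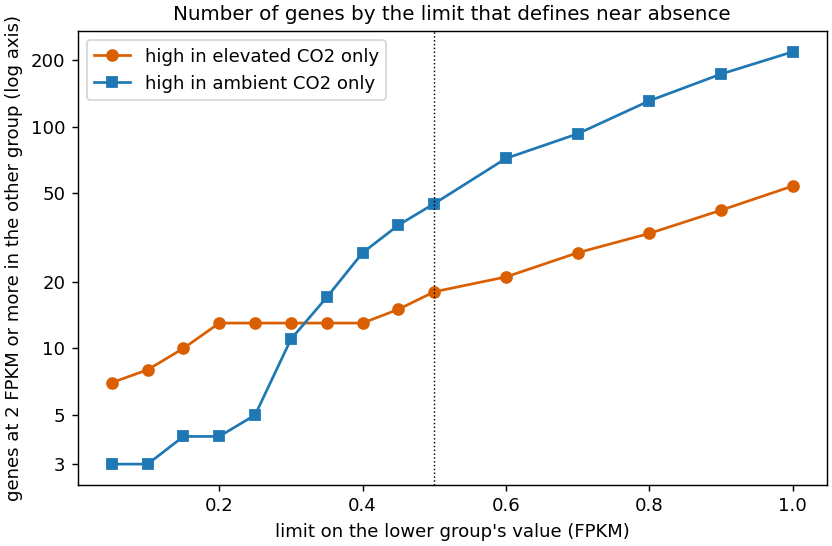
Number of genes at 2 FPKM or more in one group (log axis) against the limit placed on the other group's value, for genes high in elevated CO2 only (orange circles) and high in ambient CO2 only (blue squares), with a dotted line at the limit used. The lines cross between 0.3 and 0.35 FPKM: at 0.3 there are 13 genes high in elevated CO2 only and 11 high in ambient CO2 only, at 0.35 there are 13 high in elevated CO2 only and 17 high in ambient CO2 only.

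The authors tested 38 of the 63 genes, 11 of the 18 high in elevated CO2 only and 27 of the 45 high in ambient CO2 only. Calls at q under 0.05 in the authors' deposited table covered 5 of those 11, where 2.42% of all 16280 tested genes were called higher, and 17 of those 27, where 9.04% of all tested genes were called lower. The test used the values that chose the genes, so these shares are printed for orientation and nothing is read from them. The 25 genes without a test had no more than 4.50 FPKM in elevated or 3.10 FPKM in ambient CO2.

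The 5 genes that rose were not the 5 with the highest levels. Sobic.009G001600 and a gene of chromosome 5 (67373728 to 67374693; 3.05 FPKM in elevated CO2, listed at 0 in ambient CO2) both had q = 0.00112 in the authors' deposited table. No test statistic was listed there for either gene, so these q-values cannot be set beside a statistic. A gene of chromosome 8 (59632341 to 59636299), with 3.86 FPKM in elevated CO2 and 0.413 FPKM in ambient CO2, had q = 0.00502 in the authors' deposited table. In the authors' deposited table Sobic.005G184700 had q = 0.0193. The fifth was a gene of chromosome 9 (1908609 to 1909519) with 2.94 FPKM in elevated CO2, 0.0511 FPKM in ambient CO2 and q = 0.0201 in the authors' deposited table.

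Of the 6 genes of at least 5 FPKM in elevated CO2, 4 did not pass. The gene at 12.7 FPKM on chromosome 2 had an unadjusted p of 0.248 and q = 0.648 in the authors' deposited table, although its test statistic was 2.54. Sobic.005G184700, which was called, had a statistic of 1.02 there, according to the authors' deposited table. Its neighbour, at 9.43 FPKM, had a statistic of 1.90 with q = 0.563, and the gene at 8.21 FPKM had a statistic of 1.85 with q = 0.536, both in the authors' deposited table. The gene at 5.87 FPKM had the largest statistic of any tested gene that was not called, 2.68, with q = 0.421 in the authors' deposited table. Of the 14415 tested genes that were not called, 16 were among the 63. The 8 with the largest statistic in either direction included 7 of the 63, 5 high in elevated CO2 only and 2 high in ambient CO2 only. The statistic compares the values that chose the genes, so this count is a description and nothing is read from it. Called genes with a listed statistic had a median absolute value of 1.35 in the authors' deposited table. The order of the statistics and that of the q-values therefore differed for the genes named above.

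The 17 genes that fell had 2.19 to 6.27 FPKM in ambient CO2 and at most 0.499 FPKM in elevated CO2. Sobic.010G259266 had q = 0.00112, with no statistic listed, and Sobic.009G014600 had q = 0.00868 in the authors' deposited table. Their median span was 3572 bp, and the longest spanned 14957 bp (chromosome 7, 37653318 to 37668275; 0.499 FPKM in elevated and 3.67 FPKM in ambient CO2; q = 0.0485 in the authors' deposited table). The 10 genes tested without a call had a median span of 1571 bp and included the gene of chromosome 2 at 4.07 FPKM in ambient CO2 (q = 0.171 in the authors' deposited table). A gene of chromosome 9 (46821033 to 46826334), with 0.3598 FPKM in elevated CO2 and 3.91 FPKM in ambient CO2, also did not pass (q = 0.121 in the authors' deposited table).

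Locus span, which the limits did not use, differed between the directions. The deposited locus of the 18 genes high in elevated CO2 only had a median span of 937 bp, and 13 of them (72.2%) spanned under 1000 bp. The 45 genes high in ambient CO2 only had a median span of 2046 bp, and 10 of them (22.2%) spanned under 1000 bp. Among the other 16554 genes of at least 2 FPKM in either group the median was 4017 bp and 5.02% spanned under 1000 bp, and over the whole table the median was 3109 bp and 12.5% did. No test of the members as a set was made. At a given FPKM a short locus rests on fewer fragments than a long one, and the part of this in the difference was not tested.

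Spans split the 18 genes high in elevated CO2 only into equal parts. In one part 9 genes spanned 788 to 998 bp, a range that holds 2.42% of the other genes of at least 2 FPKM if widened to 780 to 1000 bp. All 9 had at most 0.166 FPKM in ambient CO2, 3 of them being listed at 0, and the ratios of the other 6 were 46.7 to 283. The other 9 genes spanned 267 to 518 bp or at least 1770 bp. Of these, 2 were listed at 0 in ambient CO2 and the other 7 had ratios of 4.80 to 14.6. The span range was chosen after the values were seen. In the set of 45, only 4 genes fell in the range of 780 to 1000 bp.

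**Figure D4:**
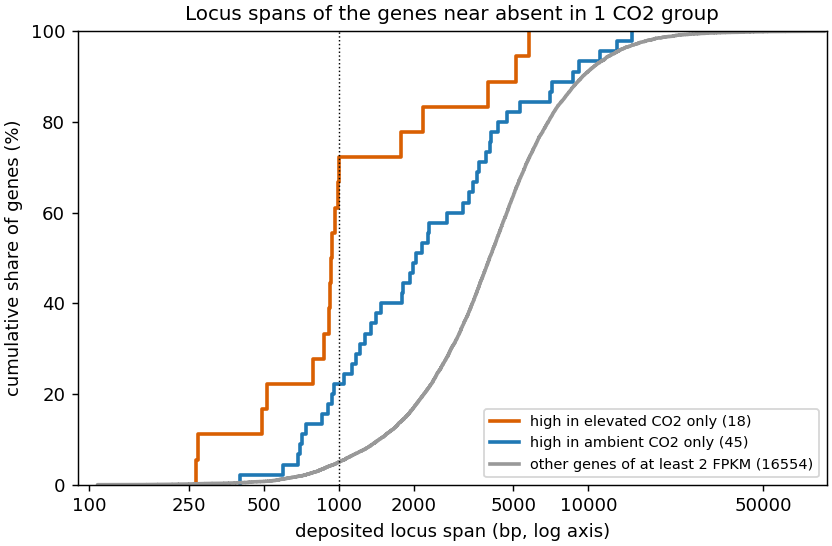
Cumulative share of genes (%) by deposited locus span (bp, log axis) for the 18 genes high in elevated CO2 only (orange), the 45 high in ambient CO2 only (blue) and the other 16554 genes of at least 2 FPKM (grey), with a dotted line at 1000 bp. The orange line climbs steeply just below 1000 bp, where it reaches 72.2%, against 22.2% for the blue line and 5.02% for the grey line.

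The genes of 788 to 998 bp lay on 3 chromosomes only, 6 on chromosome 5, 1 on chromosome 2 and 2 on chromosome 9. Those of chromosome 5 made up all members of their direction on that chromosome. It holds 7.14% of the genes in the table and 4.78% of the other genes of at least 2 FPKM. These 6 genes stood within 409 kb (66965526 to 67374693) that carries 44 annotated genes, and their loci spanned 926 to 998 bp. In order along the chromosome, their levels were 12.3, 9.43, 2.26, 8.21, 2.13 and 3.05 FPKM in elevated CO2, against 0.0435, 0.108, 0.0485, 0.102, 0 and 0 FPKM in ambient CO2. Each elevated value was more than 40 times its ambient value, or the ambient value was listed at 0. Together they held 37.4 FPKM in elevated CO2 and 0.303 FPKM in ambient CO2, and their sum was 42.4% of that of all 18 genes in elevated CO2.

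Of the 37 genes of the stretch that did not meet the limits, 22 were under 0.5 FPKM in both groups and 9 of those were listed at 0 in both. Of the 11 that were tested, none was called higher and 2 were called lower in the authors' deposited table. Those 2 genes had 33.3 and 31.8 FPKM in elevated CO2, against 212 and 243 FPKM in ambient CO2. The stretch also held 1 gene high in ambient CO2 only (67142794 to 67146249), with 0.340 FPKM in elevated CO2 and 3.32 FPKM in ambient CO2 (q = 0.0188 in the authors' deposited table). Just before the stretch, 2 short genes of 822 and 831 bp had 1.94 and 1.87 FPKM in elevated CO2, below the minimum of 2 FPKM, and were listed at 0 in ambient CO2. The table does not show whether these genes are copies of one another; if so, fragments that match several copies would tie their values together.

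**Figure D5:**
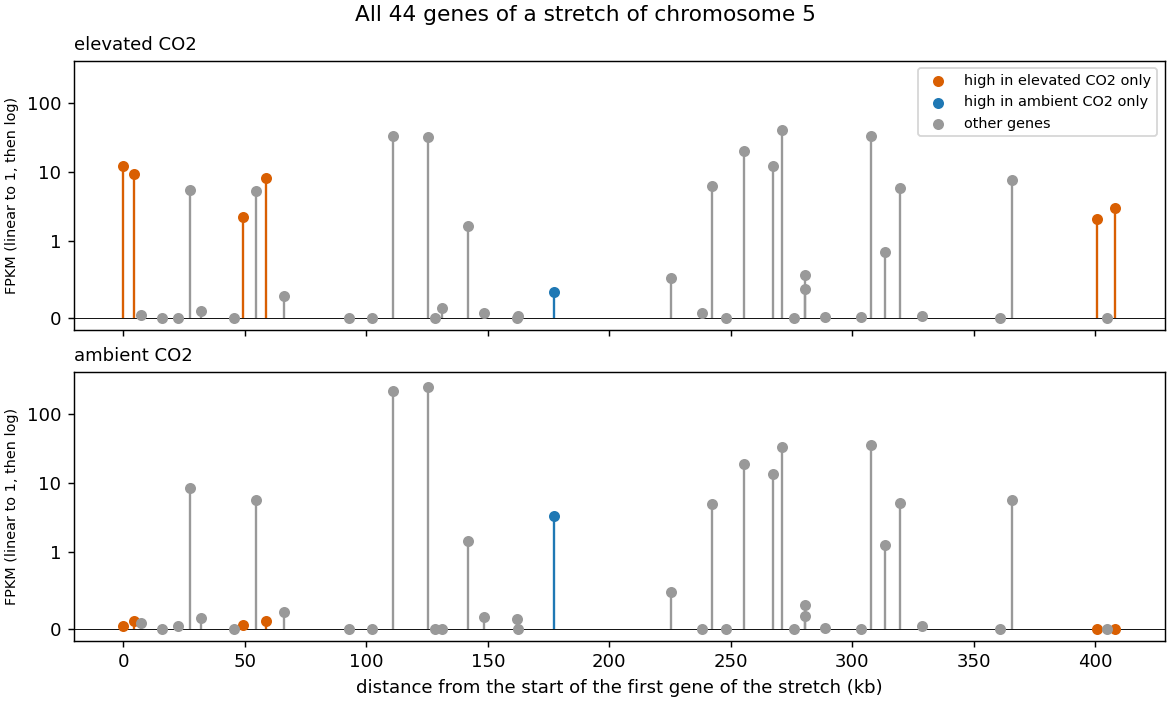
Pooled FPKM in elevated CO2 (top) and ambient CO2 (bottom) of all 44 genes of the chromosome 5 stretch, on an axis linear to 1 and logarithmic above, by distance in kb from the start of the first gene. The 6 genes in orange reach 2.13 to 12.3 FPKM in elevated CO2 and stay at or below 0.108 FPKM in ambient CO2, while the blue gene has the opposite pattern and the 2 tallest grey genes in ambient CO2 are those called lower.

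Just under the minimum, 76 genes had 1 to 2 FPKM in elevated CO2 and under 0.5 FPKM in ambient CO2. Of these, 11 were listed at 0 in ambient CO2, and 4 of the 11 lay within 5 genes of one of the 18 while the others did not. Besides the pair on chromosome 5, one was next to the called gene of chromosome 9 (1905207 to 1906028, 821 bp, 1.04 FPKM in elevated CO2). Another lay 2 genes from the highest gene, on chromosome 2 (60415671 to 60416649, 978 bp, 1.40 FPKM in elevated CO2). The 4 loci spanned 821, 822, 831 and 978 bp. The reverse pattern, 0 in elevated CO2 and 1 to 2 FPKM in ambient CO2, was listed for 6 genes.

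Genes high in ambient CO2 only were spread over all 10 chromosomes, from 2 on chromosomes 5 and 8 to 8 on chromosome 6. None was next to another or had fewer than 2 genes between, whereas 2 of the 18 genes high in elevated CO2 only were adjacent and 6 had another within 1 gene. A locus shared with an overlapping gene was listed for 3 of the 45 and 1 of the 18, against 11.9% of the table. Identifiers that do not end in 00 belonged to 12 of the 45 genes (26.7%), to 2 of the 18 (11.1%) and to 15.2% of the table. Among the other genes of at least 2 FPKM the share was 5.55%.

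Of the 34 distinct genes next to those high in elevated CO2 only, 14 had at least 2 FPKM in either group (41.2%, against 48.7% of the table) and 11 were listed at 0 in both groups (32.4%, against 21.1%). Of the 13 tested, 2 were called higher in the authors' deposited table (15.4%, against 2.42% of all tested genes) and none lower. The 13 include 2 adjacent genes of the 18, 1 of them called, so the share rests partly on values that chose the genes. The only other called gene was next to the gene of 267 bp on chromosome 6. It had 50.6 FPKM in elevated CO2, against 23.98 FPKM in ambient CO2. Of the 90 genes next to those high in ambient CO2 only, 44 had at least 2 FPKM (48.9%). Of the 43 of these 90 that were tested, 9 were called lower in the authors' deposited table (20.9%, against 9.04% of all tested genes) and 1 was called higher. No test of either share was made. Both neighbours of Sobic.010G259266 fell in the authors' deposited table, with 6.52 and 99.1 FPKM in elevated CO2, against 31.4 and 304 FPKM in ambient CO2. For 7 of the 45 genes and 4 of the 18, both neighbours were under 0.5 FPKM in both groups. Of all 34129 genes, 13672 were themselves under 0.5 FPKM in both groups. How many of all genes have 2 such neighbours was not computed, so nothing is read from these counts.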

How the data were processed

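The study measured RNA from sorghum prop roots by sequencing, in 4 libraries from elevated and 4 from ambient CO2. Cuffdiff, HISAT2, Cufflinks 2.2.1 and Trimmomatic 0.36 are the tools in the submitters' processing notes; for settings and genome build the sources used here give nothing. The authors deposited 1 FPKM value per gene and group, pooled over the libraries, with a log2 ratio, a score (the test statistic), and both p-value and q-value, per the file headers. Loci are printed as deposited, and span is end minus start. Genes were selected by the 2 limits with pandas 2.3.3 under Python 3.11.15, and ratios were computed as elevated over ambient or higher over lower value. No library could be compared with another, so no fit was made across libraries and calls are those of the authors' deposited q-value under 0.05 over all tested genes. No counts or depths are at hand, so no interval is given, and low values could not be turned back into reads. The genes and the descriptions were chosen with earlier results of these data known. Selection and neighbour counting were tested on simulated data. The plan was to name, per direction, all called genes, the 10 highest, adjacent ones and the 3 nearest to each limit. For genes high in ambient CO2 only, just some of the called and highest ones are given. Genes nearest to a limit are mostly given by value alone, and others by their range. With no names paired, 2 identifiers per direction are printed. Genes next to the chromosome 5 stretch, flanking genes and those of 1 to 2 FPKM listed at 0 were named after their values were seen. Motif, protein and product name comparisons that had been planned were not made, since no such annotation was at hand.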

Additional observations from a re-analysis of the deposited data

How the results depend on the processing

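Counts of genes depended on the limits. For genes high in elevated CO2 only (18) the count was 54 with a lower limit of 1 FPKM, 94 with a higher minimum of 1 FPKM, 7 with a higher minimum of 4 FPKM, 28 with elevated values scaled to equal summed FPKM (1.13 times) and 8 with a lower limit of 0.1 FPKM. For genes high in ambient CO2 only (45) it was 218, 223 and 3 under the first 3 of these, 5 with a lower limit of 0.25 FPKM and 3 with 0.1 FPKM. It was 36 with equal summed FPKM. Stricter limits admit fewer genes by construction. The limit of 0.1 FPKM, and leaving out loci under 300 bp, were chosen after seeing the data. With a deposited q under 0.01, 3 genes high in elevated CO2 only were called in place of 5. The median log2 ratio with a pseudocount of 1 FPKM was 1.85 for genes high in elevated CO2 only and -1.39 for those high in ambient CO2 only, and with 0.01 FPKM it was 5.88 for genes high in elevated CO2 only and -2.76 for those high in ambient CO2 only. With at most 1 gene between, 6 genes high in elevated CO2 only were near another in place of 2. The other 18 alternatives left counts within 1.5 times those reported. Among these alternatives, which direction held more genes turned round under 3. With a lower limit of 0.25 FPKM, 13 genes were high in elevated CO2 only and 5 in ambient CO2 only. With 0.1 FPKM there were 8 in elevated and 3 in ambient CO2 only. A higher minimum of 4 FPKM left 7 in elevated and 3 in ambient CO2 only. More genes were also high in elevated CO2 only at every lower limit tried from 0.05 to 0.3 FPKM. No paired analysis was possible because all 4 libraries of a group are pooled in 1 value; likewise no library was left out. Read depth is not known, nor what it limits.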
